A study of Mus musculus with 4 samples.

Results

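The genes described here encode the machinery that copies DNA in S phase and the machinery that divides the cell in G2 phase and mitosis. They were taken from a list of 54 gene symbols, of which 27 belong to S phase and 27 to G2/M. A gene was kept where the platform annotation gives its symbol to a spot with a value on all 4 arrays. This left 53 of the 11791 genes measured in the series, all 27 S phase genes and 26 G2/M genes. Ccnb1, which encodes cyclin B1, has no spot named for it in the annotation used here. The study compared E12.5 mouse telencephalon (the embryonic forebrain in mid-gestation) between 152F7 transgenic mice and wild-type mice, both on the FVB background. In 152F7 mice a yeast artificial chromosome adds a human segment of the Down syndrome region, with the protein kinase gene DYRK1A. One RNA pool per genotype was labelled with Cy3 or Cy5 and both pools were hybridised together, with wild type in Cy5 on 2 arrays and 152F7 in Cy5 on the other 2. How many embryos made up a pool, and their sex, is not given in the sources used here.

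In the embryonic telencephalon the cells next to the ventricle divide, and their daughters leave the cell cycle and become neurons. A dividing cell loads the MCM helicase on DNA in G1, activates it with Cdc45 and the GINS complex at the start of S phase, and copies DNA with polymerases held by the Pcna clamp. It then enters mitosis when Cdk1 is activated by cyclins A and B, and leaves it when the anaphase-promoting complex marks cyclins and securin for degradation. E2F factors drive many S phase genes, and the MuvB complex with B-MYB and FOXM1 drives many G2/M genes, so both sets are read as signs of dividing cells.

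Each value is the log2 ratio of one pool over the other on one array. Xist, which is made by the inactive X chromosome of female cells, lay between -3.53 and -3.27 on the 4 arrays. The Y-linked gene Eif2s3y lay between 1.77 and 2.39. These genes kept one sign in both dye orientations, so the deposited ratios were read as running one way on all arrays, with a numerator and a denominator pool. The labels do not say which genotype is the numerator, and every sign below is relative to the pools. The pools thus also differed in markers of sex. A dye effect has opposite signs in the 2 orientations and cancels in the mean of both. With 1 pool per genotype no test of the genotypes is possible. The SD beside a mean is over the 4 arrays (n = 4 technical arrays) and leaves out the spread between embryos.

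A gene was called lower or higher by the loose rule where all 4 arrays had one sign and the mean had a size of at least 0.09 (1.06-fold). At this size, contrasts between replicate arrays, which hold neither genotype nor dye, gave 4.39% of the number of calls between the pools with the same demand on signs. That demand asks replicates of one orientation to lie on opposite sides of 0. Over all genes such replicates correlated (Pearson's r 0.737 and 0.634), so few genes could meet it and the share is a low estimate. They gave 14.1% when one sign was asked only of the difference in each orientation. A stricter threshold of 0.135 (1.10-fold), added after the values were seen, brought the latter share to 9.78%. A value was present for 23796 to 28942 of the 44290 spots per array. Intensities were not used here, so the signal behind a ratio is unknown.

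Members of both sets were more often lower than higher in the numerator pool. Of the 53 members, 10 (18.9%) were lower by the loose rule, against 4.14% of all genes, and 0 were higher, against 7.07% of all genes. The lower genes were Gmnn, Gins1, Tyms, Prim1 and Rfc4 of the S phase set and Cdk1, Top2a, Ube2c, Mad2l1 and Bub1 of the G2/M set. At the stricter threshold 6 members were lower and 0 higher, against 1.57% and 3.55% of all genes. The differences were small, and no member reached 1.5-fold in either direction, which 0.00848% of all genes reached as lower and 0.0763% as higher. The mean was below 0 for 40 of the 53 members, against 48.5% of all genes. All 4 arrays were below 0 for 16 members and above 0 for 2, against 9.85% and 12.8% of all genes. The median of the members was -0.048, and that of all genes 0.002. If the ratios of the arrays with wild type in Cy5 ran the opposite way, 3 members would be lower and 11 higher, against 5.55% and 10.8% of all genes, and none of the 10 genes above would be among the lower. Without replicate 1 of wild type in Cy5, Tyms, Bub1 and Mad2l1 were not past the rule, and without replicate 1 of 152F7 in Cy5, Tyms and Bub1 were not. In pooled tissue, fewer dividing cells and less RNA of these genes per cell cannot be told apart.

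**Figure D1:**
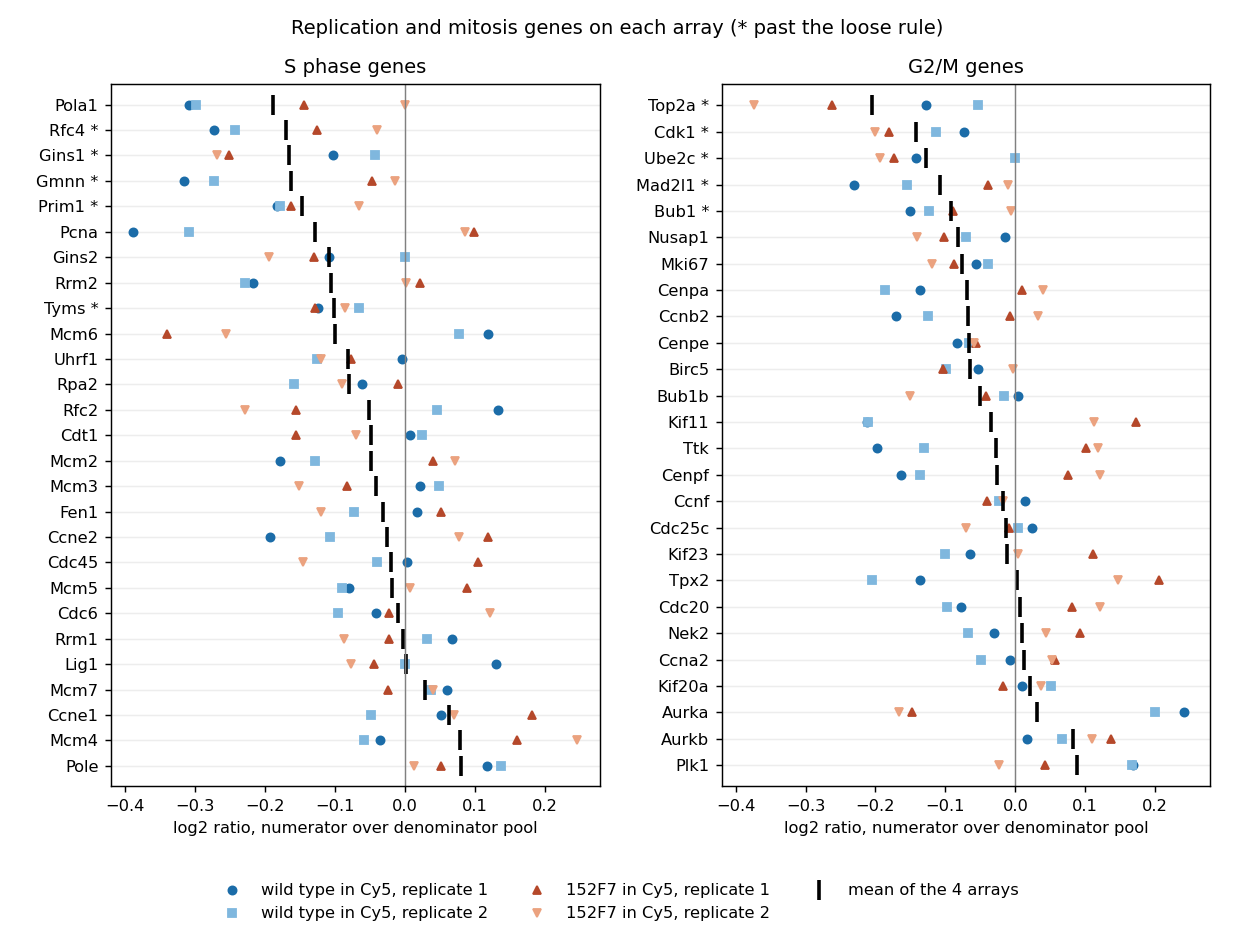
Log2 ratio (x axis, numerator over denominator pool) of each of the 27 S phase genes (left) and 26 G2/M genes (right) on each of the 4 arrays, coloured by dye orientation. Black bars are the means, stars mark the 10 genes past the loose rule, and many genes have the 2 orientations on different sides of 0, as Pcna, Mcm6, Kif11 and Aurka show.

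The helicase and the factors that load and start it differed among themselves. Gmnn encodes geminin, which blocks reloading of the helicase by binding Cdt1. Gmnn was at -0.315 and -0.272 with wild type in Cy5 and at -0.047 and -0.014 with 152F7 in Cy5, with a mean of -0.16 ± 0.15. All arrays were below 0, and the first orientation lay further from 0. Gins1, a GINS subunit of the active helicase, was at -0.103 and -0.042 with wild type in Cy5 and at -0.251 and -0.268 with 152F7 in Cy5 (mean -0.17 ± 0.11, 1.12-fold lower). Here the second orientation lay further from 0. Its partner Gins2 reached the size of the rule with -0.11 ± 0.08, but 1 array read exactly 0. Cdc45, Cdc6 and Cdt1, which complete or load the helicase, had means between -0.05 and -0.01.

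None of the 6 subunits of the MCM ring passed the loose rule, and their means ran from -0.10 to 0.08. For 5 of the 6 the 2 dye orientations lay on opposite sides of 0. Mcm4 was at -0.035 and -0.058 with wild type in Cy5 and at 0.16 and 0.247 with 152F7 in Cy5. Mcm6 went the other way, with 0.119 and 0.077 in the first orientation and -0.340 and -0.255 in the second. Mcm2, Mcm3 and Mcm5 also had their orientations on different sides, and Mcm7 had 1 array below 0 and 3 above.

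Enzymes that make and join DNA held the lowest S phase values. Rfc4, a subunit of the loader that places the Pcna clamp, was at -0.272 and -0.243 with wild type in Cy5 and at -0.126 and -0.040 with 152F7 in Cy5 (mean -0.17 ± 0.11, 1.13-fold lower). Prim1, the catalytic subunit of primase, which starts each new strand, was at -0.182, -0.179, -0.162 and -0.066 (mean -0.15 ± 0.05). It was more even across the arrays than Rfc4. Pola1, the catalytic subunit of the polymerase that works with primase, had the lowest S phase mean at -0.19 ± 0.15. It was at -0.309 and -0.299 with wild type in Cy5 and at -0.144 and 0 with 152F7 in Cy5, and the value of exactly 0 kept it outside the rule.

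Pcna, the clamp itself, was split by orientation, at -0.388 and -0.308 with wild type in Cy5 and at 0.099 and 0.086 with 152F7 in Cy5. Pole, the catalytic subunit of the leading strand polymerase, had the highest S phase mean, at 0.118, 0.137, 0.052 and 0.013 (0.08 ± 0.06), above 0 on all arrays and under the size of the rule. Rpa2, which coats single-stranded DNA, was at -0.08 ± 0.06 and below 0 on all arrays. These are means over spots, and a single Rpa2 spot read 0.023 on replicate 1 of 152F7 in Cy5. Fen1 and Lig1, which trim and seal the pieces of the lagging strand, and Rfc2, a second subunit of the clamp loader, had means between -0.05 and 0.002 with arrays of both signs.

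Of the genes that supply nucleotides, Tyms, which encodes thymidylate synthase, passed the loose rule. It was at -0.124 and -0.065 with wild type in Cy5 and at -0.128 and -0.086 with 152F7 in Cy5 (mean -0.10 ± 0.03). These are means of 2 spots that differed by orientation in opposite ways. One spot was at -0.242, -0.132, -0.042 and 0.037 and the other at -0.005, 0.002, -0.214 and -0.208. Neither spot passed the rule alone, and the SD over arrays was 0.12 for each. Rrm2, the regulated subunit of ribonucleotide reductase, was at -0.217 and -0.228 in the first orientation and 0.022 and 0.002 in the second. Rrm1, its large subunit, had a mean of -0.003 ± 0.07. Ccne1 and Ccne2, the E cyclins that start S phase with Cdk2, had means of 0.06 ± 0.09 and -0.03 ± 0.15. Ccne1 was at 0.052, -0.049, 0.183 and 0.070, with 1 array below 0. Uhrf1, which recruits the maintenance DNA methyltransferase to new DNA, was below 0 on all arrays at -0.08 ± 0.06, just outside the size of the rule. These are means over spots, and a single Uhrf1 spot read 0.042 on replicate 1 of wild type in Cy5.

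In the G2/M set the lowest value belonged to Top2a, the topoisomerase that untangles sister chromosomes. Top2a was at -0.128 and -0.054 with wild type in Cy5 and at -0.263 and -0.374 with 152F7 in Cy5 (mean -0.20 ± 0.14, 1.15-fold lower). Cdk1, the kinase that drives entry into mitosis, was at -0.074, -0.113, -0.180 and -0.200 (mean -0.14 ± 0.06). A second Cdk1 spot lacked a value on 1 array and read -0.012, -0.044 and 0.092 on the others, so the 2 spots did not give like values. With that spot included the mean was -0.08 and Cdk1 was not past the rule. The cyclins Ccna2, Ccnb2 and Ccnf and the phosphatase gene Cdc25c, which activates Cdk1, had means between -0.07 and 0.01.

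Genes of the spindle checkpoint and of the anaphase-promoting complex held the other lower genes of the set. Mad2l1, whose product holds back the complex until chromosomes are attached, was at -0.230 and -0.155 with wild type in Cy5 and at -0.039 and -0.011 with 152F7 in Cy5 (mean -0.11 ± 0.10). Bub1, a checkpoint kinase at the kinetochore, was at -0.151, -0.124, -0.089 and -0.006 (mean -0.09 ± 0.06), the smallest size among the genes past the rule. Ube2c, the ubiquitin-conjugating enzyme that works with the complex, was at -0.142, -0.001, -0.173 and -0.193 (mean -0.13 ± 0.09), with 1 array close to 0. The checkpoint kinases Bub1b and Ttk, the centrosome kinase gene Nek2 and Cdc20, which activates the complex, had means between -0.05 and 0.01.

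The 3 highest G2/M means belonged to the kinase genes Plk1, Aurkb and Aurka, all under the size of the rule. Kinase genes of the set differed among themselves. Cdk1 and Bub1 were past the rule as lower, Bub1b and Ttk had means below 0, and Nek2 had a mean of 0.009. Plk1, a kinase of mitotic entry and spindle assembly, was at 0.168 and 0.167 with wild type in Cy5 and at 0.042 and -0.024 with 152F7 in Cy5 (mean 0.09 ± 0.10). Aurkb, the kinase of the chromosomal passenger complex, was above 0 on all arrays, at 0.017, 0.066, 0.137 and 0.109 (mean 0.08 ± 0.05). Birc5, which encodes survivin of the same complex, had a mean of -0.06 ± 0.05. Aurka, the centrosomal Aurora kinase, was at 0.241 and 0.199 with wild type in Cy5 and at -0.148 and -0.166 with 152F7 in Cy5, for a mean of 0.03 ± 0.22.

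The spindle genes Kif11, Kif20a, Kif23, Tpx2 and Nusap1 had means from -0.08 to 0.02, and none passed the rule. Kif11, the motor that pushes the spindle poles apart, was at -0.212 and -0.211 with wild type in Cy5 and at 0.172 and 0.112 with 152F7 in Cy5. Cenpa, Cenpe and Cenpf, which encode centromere and kinetochore proteins, and Mki67, a coat protein of mitotic chromosomes used as a marker of dividing cells, had means from -0.08 to -0.03. Of these, Cenpe and Mki67 were below 0 on all arrays, at -0.07 ± 0.01 and -0.08 ± 0.04. This holds for the means over their spots and not for each spot. With 152F7 in Cy5, a Cenpe spot read 0.043 on replicate 2 and another read 0.025 and 0.045. The SD over arrays of single Cenpe spots was 0.057 to 0.105. An Mki67 spot read 0.058 and 0.05 with wild type in Cy5.

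The S phase and G2/M genes did not differ beyond the spread between arrays. The median was -0.048 ± 0.020 for the S phase genes and -0.031 ± 0.035 for the G2/M genes (SD of the medians on the 4 arrays), and by the loose rule 5 of 27 and 5 of 26 genes were lower. With wild type in Cy5 the S phase medians were -0.041 and -0.065 and the G2/M medians -0.070 and -0.069. With 152F7 in Cy5 the S phase medians were -0.024 and -0.066 and the G2/M medians -0.013 and -0.005. The G2/M median minus the S phase median was 0.017 over the means, with an SD of 0.038 over the arrays. It was below 0 on both arrays with wild type in Cy5 (-0.0285 and -0.004) and above 0 on both with 152F7 in Cy5 (0.011 and 0.0615). Its sign thus differed between the orientations, but the step from -0.004 to 0.011 was smaller than the gap between replicates of either orientation. All genes had medians between -0.012 and 0.022 on the 4 arrays, so both sets lay under all genes on each array.

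**Figure D2:**
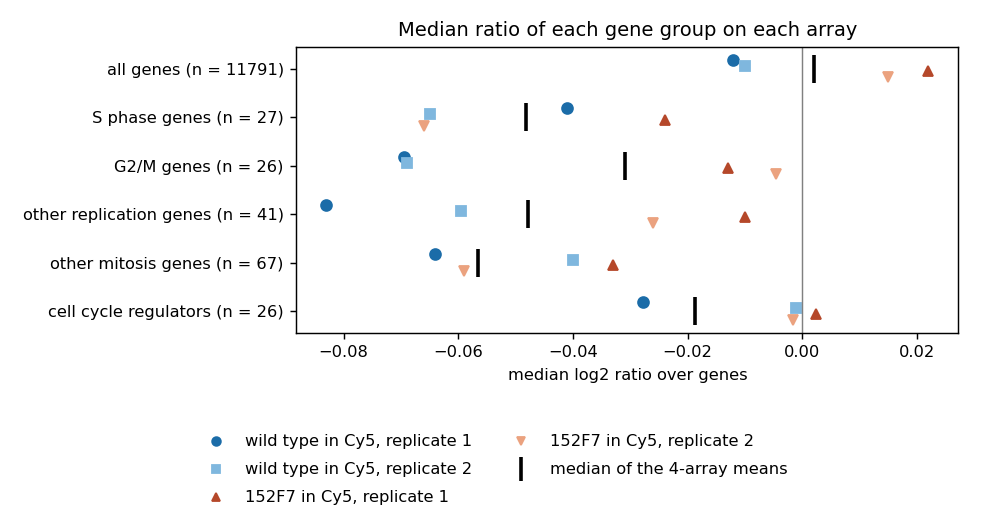
Median log2 ratio over the genes of each group (x axis) on each of the 4 arrays, with the median of the 4-array means as a black bar. The S phase and G2/M genes lie under all genes on each array, and their order relative to each other changes between the dye orientations. On replicate 2 of wild type in Cy5 the 2 sets differ by only -0.004.

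The 2 dye orientations gave different pictures of single members. The difference between orientations (mean with 152F7 in Cy5 minus mean with wild type in Cy5) ran from -0.40 for Mcm6 to 0.44 for Pcna. Its median was -0.002 for the S phase genes and 0.05 for the G2/M genes, against 0.03 for all genes. The S phase value was above 0, at 0.0088 to 0.045, whichever 1 array was left out, so its sign rests on single arrays. For 15 members both arrays with wild type in Cy5 lay below 0 and both with 152F7 in Cy5 above 0, a pattern that 20% of all genes had. For 7 members the signs were the other way around, against 10.8% of all genes. The SD over arrays exceeded the size of the mean for 33 of the 53 members and for 8908 of all genes. Across the 53 members Pearson's r was 0.891 and 0.799 between arrays hybridised the same way. Between arrays hybridised opposite ways it lay between -0.337 and -0.0957, against 0.0379 to 0.0861 over all genes. Spearman's correlation between such arrays was -0.390 to -0.0497 for the members and -0.103 to -0.0567 for all genes. Over the members the SD was 0.071 for the means and 0.091 for the orientation difference divided by 2. Over all genes these were 0.086 and 0.080. The divided difference thus varied more than the means among the members but not among all genes, which limits any ranking of single members. The members share both pools and are not independent. Any dye effect would enter the orientation difference. It was not measured for single spots, and the cause of the difference was not tested.

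**Figure D3:**
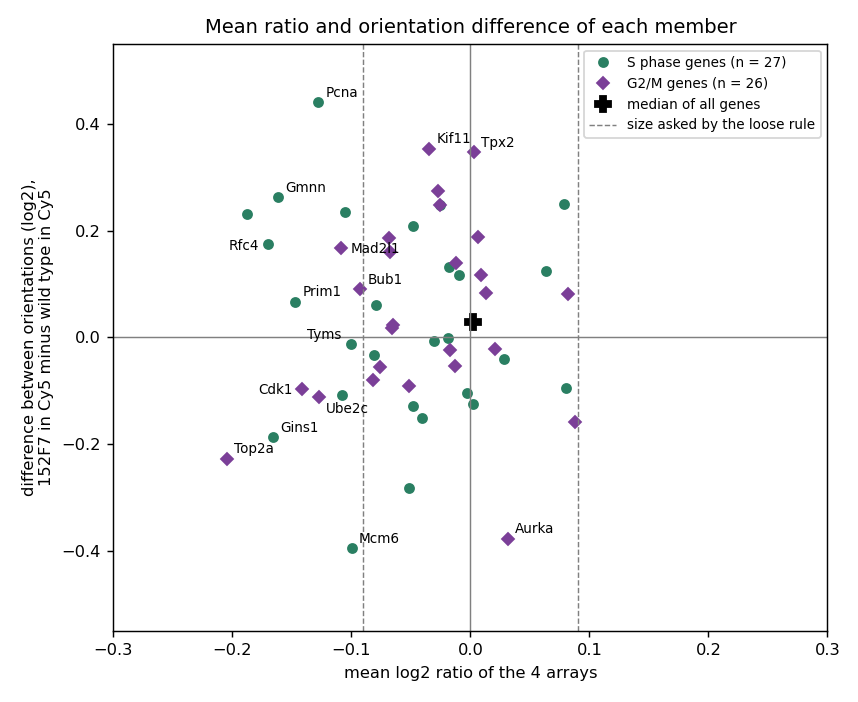
Mean log2 ratio of the 4 arrays (x axis) against the difference between dye orientations (y axis, log2) for the 53 members, with the median of all genes as a cross and the size asked by the loose rule as dashed lines. The 10 genes past the rule have orientation differences of both signs, and Pcna and Mcm6 lie farthest apart on the y axis.

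The spot means of one member, each over the 4 arrays, mostly had the same sign. Of 84 spots for members, 72 had values on all 4 arrays, 7 on 1 to 3 arrays and 5 on none. Among 18 members with at least 2 full spots, 14 had spot means of one sign, and for 13 of these all were below 0. The mean was below 0 for 40 of the 53 members, so unrelated spots would also often share a sign. The matching share over all genes was not computed. Both spot means were below 0 for Top2a (-0.17 and -0.23), Gins1 (-0.14 and -0.19), Mad2l1 (-0.08 and -0.14) and Tyms (-0.09 and -0.11). Not every spot of these genes passed the loose rule, since 1 spot each of Top2a and Gins1 had 1 array slightly above 0 and 1 Mad2l1 spot had both arrays with 152F7 in Cy5 above 0. With the spot nearest to 0 in place of the mean over spots, Gins1, Tyms, Mad2l1 and Top2a were not past the rule and 6 members were lower. The gap between the spots of a member had a median of 0.05 and reached 0.11 for Mki67, which exceeds the mean of most members.

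Other genes of the same processes were read from longer lists. Of 67 measured genes of mitosis outside the members, 14 (20.9%) were lower by the loose rule and 1 was higher. Of all genes 4.14% were lower and 7.07% higher. The median of the 67 was -0.06 ± 0.01 (SD of the medians on the 4 arrays). The lowest were Sgo2a, a protector of centromeric cohesion, at -0.21 ± 0.18, Smc2, a core subunit of condensin, at -0.21 ± 0.14, and Spc24, a subunit of the kinetochore complex that binds microtubules, at -0.19 ± 0.14. The higher gene was Incenp, the scaffold of the passenger complex that holds Aurkb, at 0.14 ± 0.06. Of 41 measured genes of replication outside the members, 2 (4.88%) were lower, a share near the 4.14% of all genes, and 0 higher. For 34 of them the mean was below 0, against 48.5% of all genes, and the median was -0.05 ± 0.03. The 2 lower genes were Rpa3, the small subunit of the complex that holds Rpa2, at -0.20 ± 0.06, and Orc6, of the origin recognition complex, at -0.13 ± 0.12. This count was 4 to 7 when replicate 2 of wild type in Cy5 or either replicate of 152F7 in Cy5 was left out. The share of all genes called lower was then 5.16% to 5.67%. Among 26 regulators of the cell cycle (E2F, RB, MuvB, FOXM1 and G1 genes) 0 were lower and 2 (7.69%) higher, a share near the 7.07% of all genes. These were Ccnd2, a cyclin of G1, at 0.26 ± 0.10 and its partner kinase gene Cdk6 at 0.21 ± 0.07.

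Several lists of cell type markers had a larger share past the loose rule than all genes, of which 7.07% were higher and 4.14% lower. Of 15 neuron markers 4 were higher and 0 lower (list medians from 0.066 to 0.130 on the arrays), led by the neurofilament gene Nefm at 0.33 ± 0.09. The lowest, Stmn2, was at -0.03 ± 0.22, with its dye orientations on opposite sides of 0. Of 11 markers of mesenchyme and meninges 6 were higher and 1 lower (0.075 to 0.177), 6 of 7 red cell markers were higher (0.127 to 0.183), 1 of 7 endothelial markers was higher (0.051 to 0.085), and all 9 lens markers were higher (0.762 to 0.860). Of 10 markers of neural progenitors, the main dividing cells of this stage, 1 was higher and 0 lower (-0.007 to 0.060). Of 7 markers of intermediate progenitors 0 passed in either direction (-0.092 to 0.095). Of 8 telencephalon markers Lhx2 was higher at 0.28 ± 0.12 and Gsx2 lower at -0.11 ± 0.04. For the endothelial, progenitor and telencephalon lists, 0 or 1 gene in a direction is near what the shares of all genes would give. Ratios give no level of any marker, and the part of these cell types in the values of the replication and mitosis genes was not tested.

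**Figure D4:**
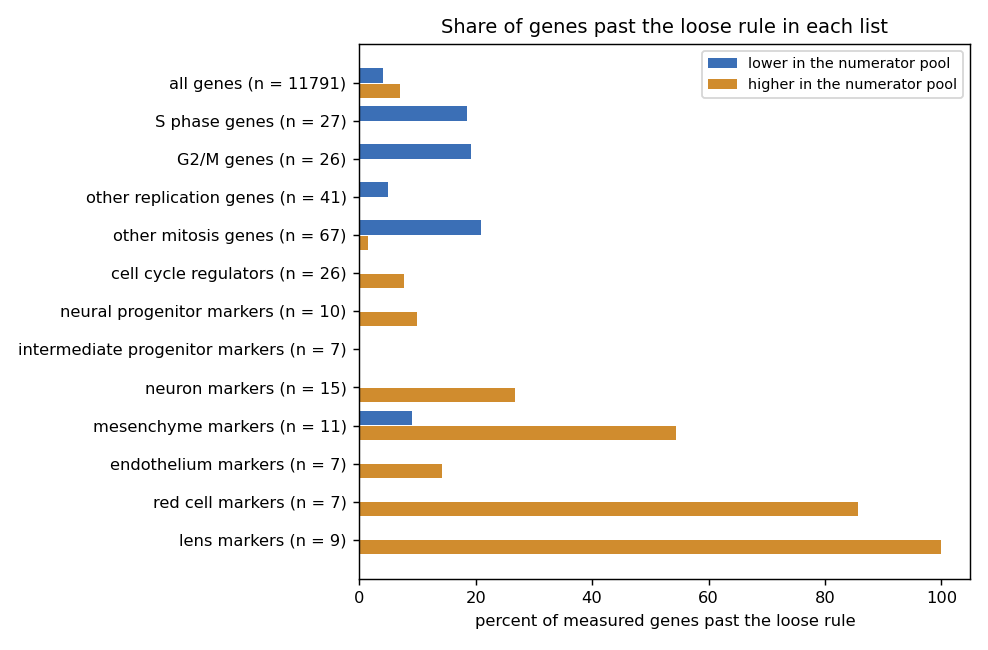
Percent of the measured genes of each list (x axis) that were lower (blue) or higher (orange) in the numerator pool by the loose rule. The S phase genes, G2/M genes and other mitosis genes have 18.5%, 19.2% and 20.9% lower against 4.14% of all genes, and the lists of neurons, mesenchyme, red cells and lens have more genes higher than lower.

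The members differ in the sequence of their promoters along the line between the sets. RefSeq windows from 250 bases before to 50 bases after the start of the gene (GRCm38.p6) were found for 42 members. They were searched on both strands for the cell cycle homology region (CHR, TTTGAA or TTCGAA), at which MuvB binds, for the CCAAT box (CCAAT), at which NF-Y binds, and for E2F sites (TTTCCCGC, TTTCGCGC, TTTGCCGC or TTTGGCGC). The motifs do not contain one another. A CHR was found in 16 of 22 G2/M windows (72.7%) and 4 of 20 S phase windows (20%), against 19.4% of the windows of all genes. The CCAAT box was in 19 of 22 G2/M windows (86.4%) and 13 of 20 S phase windows (65%), against 37.9% of all windows. An E2F site was in 1 G2/M window (4.55%) and 7 S phase windows (35%), against 2.32% of all windows. Of the 10 genes past the loose rule 8 have a window, and 4 of these hold a CHR, against 16 of 33 windows of measured members that did not pass.

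The windows of the 3 lowest G2/M genes are shown from 120 bases before to 30 bases after the start, 5′ to 3′ on the strand of the gene. They were picked by their means and not by their motifs, and each holds a CHR and CCAAT boxes. Capitals mark the motifs, read on either strand (RefSeq, GRCm38.p6).
Top2a, chr11:99024160-99024309, minus strand: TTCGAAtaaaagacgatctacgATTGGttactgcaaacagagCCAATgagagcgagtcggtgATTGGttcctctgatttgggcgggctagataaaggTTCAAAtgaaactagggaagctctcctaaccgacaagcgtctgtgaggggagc
Cdk1, chr10:69352883-69353032, minus strand: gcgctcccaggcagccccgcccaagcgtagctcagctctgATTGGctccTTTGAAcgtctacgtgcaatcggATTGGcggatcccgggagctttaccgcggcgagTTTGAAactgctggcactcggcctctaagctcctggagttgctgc
Ube2c, chr2:164769809-164769958, plus strand: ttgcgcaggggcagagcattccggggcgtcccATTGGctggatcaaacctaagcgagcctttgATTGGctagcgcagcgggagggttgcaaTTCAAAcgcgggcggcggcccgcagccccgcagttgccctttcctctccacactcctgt
Each of these holds a CHR within 30 bases before the start, written TTCAAA where it lies on the other strand. The E2F site of Cdk1 and further CCAAT boxes lie upstream of the bases shown.

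The same stretch is shown for the 3 lowest S phase genes past the rule with a window, Rfc4, Prim1 and Tyms, and for Mcm6, as an S phase gene with E2F sites that was not past the rule.
Rfc4, chr16:23127701-23127850, minus strand: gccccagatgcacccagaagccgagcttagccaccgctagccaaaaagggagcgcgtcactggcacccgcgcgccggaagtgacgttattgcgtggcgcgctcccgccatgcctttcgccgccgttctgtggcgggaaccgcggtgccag
Prim1, chr10:128015095-128015244, plus strand: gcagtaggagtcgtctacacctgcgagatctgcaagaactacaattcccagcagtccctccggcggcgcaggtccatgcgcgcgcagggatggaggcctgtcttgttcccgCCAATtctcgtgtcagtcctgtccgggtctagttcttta
Tyms, chr5:30073596-30073745, minus strand: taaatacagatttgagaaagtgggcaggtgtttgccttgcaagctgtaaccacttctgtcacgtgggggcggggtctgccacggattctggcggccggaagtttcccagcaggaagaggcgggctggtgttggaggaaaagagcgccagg
Mcm6, chr1:128359676-128359825, minus strand: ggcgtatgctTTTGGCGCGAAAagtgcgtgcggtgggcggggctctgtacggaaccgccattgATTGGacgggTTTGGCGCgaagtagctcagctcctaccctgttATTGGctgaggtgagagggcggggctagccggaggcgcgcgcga
In Rfc4 and Tyms none of these letters were found in the window, Prim1 holds a CCAAT box, and Mcm6 holds E2F sites, 2 of them overlapping, and CCAAT boxes. A match is a description of the letters and not evidence of binding.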

How the data were processed

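E12.5 telencephalon RNA was compared on 4 two-colour Agilent whole mouse genome arrays, with 1 ug of total RNA labelled per channel, per the labels' protocols. The authors deposited 1 log ratio per spot and array, read here as log2. How they were scaled, corrected, centred and filtered, and their base and direction, is not given in the sources used here. Their size reaches 5.76. Array medians lie between -0.007 and 0.007. The depth of signal is unknown.

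Spots were named through the platform annotation, in which 32042 of 44290 spots have 1 symbol, 47 several and 12201 none. Spots with several symbols were not used. Entrez identifiers tied all 84 member spots to genes of the RefSeq table (GRCm38.p6). Of 20923 spots with values on all 4 arrays 17767 had 1 symbol. Each full spot was averaged over the 4 arrays, and full spots of a gene were averaged. Python 3.11.15, pandas 2.3.3 and NumPy 2.4.6 were used.

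The loose rule asks for one sign on all 4 arrays and the smallest size, in steps of 0.005, at which the replicate contrasts hold at most 5% of the calls between the pools. The calling step was run on simulated data, where recovery was demanded only of changes far larger than any member mean. That check does not show how well changes of the sizes reported here are called. The labels describe technical replicates, so no p-value was computed. Values are shown for members past the loose rule, the 3 highest and 3 lowest means and the 2 largest orientation differences of each set. They are also shown for up to 3 genes past the rule in each direction of each longer list. From the marker lists they are shown for the highest and lowest neuron and telencephalon markers only. The other marker lists are given as counts and medians. Cenpe, Mki67, Rrm2 and the other members outside this rule were named after their values were seen. Members and lists were chosen with earlier results of these data known. Alternatives were each array left out, each orientation alone, one orientation turned, natural logs, other ways to join spots, other filters, centring and other thresholds.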

Additional observations from a re-analysis of the deposited data

Results flagged for a closer look

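For 6 members shown with their values on every array, both arrays of one dye orientation lay on one side of 0 and both arrays of the other orientation on the other side. This split was found in 22 of the 53 members and in 3626 of 11791 genes. The orientation difference was 0.44 for Pcna, -0.40 for Mcm6, -0.38 for Aurka, 0.35 for Kif11, 0.25 for Mcm4 and 0.23 for Rrm2. These differences were not tested.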

How the results depend on the processing

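No paired analysis was possible because the results come from no test, with 1 pool per genotype. Members called lower, 10 at first against 4.14% of all genes, numbered 20 with wild type in Cy5 alone (18% of all genes), 16 with 152F7 in Cy5 alone (12.8%), 3 with one orientation turned (5.55%), 16 with values read as natural logs (6.73%), 6 with the spot nearest to 0 (3.21%), 6 at the stricter threshold (1.57%) and 0 at 1.5-fold (0.00848%). Leaving out 1 array gave 10 to 11, against 4.82% to 5.67% of all genes. Tyms, Bub1 and Mad2l1 were lost without replicate 1 of wild type in Cy5, and Tyms and Bub1 without replicate 1 of 152F7 in Cy5. Centring lost Ube2c, and the spot nearest to 0 lost Gins1, Tyms, Mad2l1 and Top2a. Members called higher numbered 4, 10, 11 and 2 in the first 4 of these settings, against 13.1%, 22.3%, 10.8% and 9.83% of all genes. They numbered 0 to 1 with 1 array left out, against 7.81% to 8.63% of all genes. The S phase median was -0.074 to -0.051 with 1 array left out, -0.001 turned and -0.070 as natural logs. The G2/M median was -0.076 with wild type in Cy5 alone, 0.026 turned and -0.040 to -0.028 with 1 array left out. The orientation difference of the S phase genes, -0.002 at first, was 0.0088 to 0.045 with 1 array left out, -0.097 turned, 0.041 with the spot nearest to 0, 0.019 with spots lacking values included, 0.041 without the noisiest spots and -0.020 centred. That of the G2/M genes was 0.034 to 0.071 with 1 array left out, -0.062 turned, 0.076 as natural logs, 0.082 with the median over spots, 0.074 with the spot nearest to 0 and 0.035 centred. The shares of all genes given for members also stand beside the counts of the longer lists. Other mitosis genes called lower, 14 of 67 at first, numbered 27 and 23 with each orientation alone, 4 turned, 9 with the spot nearest to 0, 22 with no demand on signs (7.32% of all genes), 5 at the stricter threshold and 0 at 1.5-fold. Other replication genes called lower, 2 of 41 at first, numbered 18 and 8 with each orientation alone, 7 as natural logs, 4 centred (4.3% of all genes), 7 with no demand on signs, 1 at the stricter threshold, 0 at 1.5-fold and 2 to 7 with 1 array left out. Turned, the means of Gmnn (0.13), Prim1 (0.033), Rfc4 (0.087), Bub1 (0.045) and Mad2l1 (0.084) were above 0. Of the members not past the loose rule that the rule for shown values names, Pola1 (0.12), Pcna (0.22) and Kif11 (0.18) were also above 0 when turned, and Pole (-0.048), Plk1 (-0.079) and Aurka (-0.19), with means above 0 at first, were below 0. Reading values as natural logs multiplied every value by one factor while the size of the rule stayed at 0.09. Its larger counts and medians follow from that scaling. Apart from this and from the fewer arrays or higher thresholds that some settings use, the cause was not tested.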
